A study of Mus musculus with 6 samples.

Results

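The 7 genes described here are the platelet-derived growth factor (PDGF) ligand genes Pdgfa, Pdgfb, Pdgfc and Pdgfd, the receptor genes Pdgfra and Pdgfrb, and Cspg4, which encodes the NG2 proteoglycan, out of 21827 genes listed in each library. They were taken by gene symbol, and each had 1 row per library. PDGF ligands are secreted as dimers and signal through receptor tyrosine kinases, which dimerise, phosphorylate each other and recruit PI3 kinase, phospholipase C gamma, adaptors and phosphatases. Pdgfra is a long-known receptor of cranial neural crest mesenchyme, and mice without it, or without both Pdgfa and Pdgfc, have facial clefts. Pdgfrb is best known in pericytes, the mural cells of small vessels, which are recruited by PDGF-B from endothelium. NG2 marks pericytes and several progenitor cells and binds PDGF-AA.

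RNA came from distal mandible, which is the front end of the developing lower jaw, of single E10.75 mouse embryos (midgestation, in embryonic days), in 3 litters with 1 embryo of each label per litter. The mutant label is Msx1f/f;Msx2f/f;Rosa26mTmG/+;Hand2-Cre (3 libraries), and the control label is Msx1f/+;Msx2f/f;Rosa26mTmG/+;Hand2-Cre (3 libraries). Both labels thus carry floxed Msx2 on both copies, the mTmG reporter and Hand2-Cre, a recombinase under Hand2 regulatory sequence that acts where Hand2 is active, so cells outside that domain keep their floxed alleles. The comparison asks what changes when the second copy of the homeobox gene Msx1 is lost where Msx2 is floxed on both copies. Values are in TPM, a transcript abundance scaled by transcript length and to a fixed total per library, so levels of different genes can be set side by side.

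Msx1, the targeted gene, went against the labels in 4 of the 6 libraries. Its level was 1.90 TPM in the mutant-labelled library and 84.1 TPM in the control-labelled library of litter 1. In litter 2 it was 78.8 TPM in the mutant-labelled library and 2.61 TPM in the control-labelled one, and in litter 3 it was 73.3 TPM and 1.99 TPM in the same order. The low-Msx1 libraries, with Msx1 under 10 TPM, are therefore the mutant-labelled ones in litter 1 and control in litters 2 and 3, and the high-Msx1 libraries, with Msx1 over 50 TPM, are their littermates. Comparisons by Msx1 level are given litter by litter without a test, because Msx1 is itself a measured value, and comparisons by label are given as deposited. The authors' deposited comparison table has Msx1 at a log2 fold change of -5.19, so its positive values belong to genes that went against Msx1. Between the labels as deposited, mutant minus control, Msx1 differed by 1.41 ± 1.95 on the log2 scale (SE; limma adjusted p = 0.887). The authors' values and the labelled differences given below are therefore not readings of the same contrast. Whether the files or the labels were exchanged was not tested.

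Transcripts of the alpha receptor and of PDGF-A were abundant in all 6 libraries, and those of the endothelial ligand PDGF-B were scarce. Pdgfra had the highest mean, at 93.0 ± 8.93 TPM (SD over 6 libraries), followed by Pdgfa at 87.5 ± 8.05 TPM. The ranges of these genes overlapped, with Pdgfra above Pdgfa in 5 of 6 libraries, so their order is not beyond their spread. Pdgfrb followed at 25.7 ± 2.38 TPM, Pdgfc at 15.9 ± 3.78 TPM and Pdgfb at 2.25 ± 0.550 TPM, and each of these steps separated all 6 libraries without overlap. Pdgfd, at 0.573 ± 0.237 TPM, and Cspg4, between 0 and 1.07 TPM, were lowest and overlapped each other.

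Markers of mesenchyme were the most abundant of the tissue marker lists apart from those of red blood cells. The 8 mesenchyme markers, among them Prrx1, Twist1 and Dlx5, summed to 972 to 1049 TPM per library. The 11 epithelial markers, such as Epcam and Cdh1, were at 1 TPM or more in every library and summed to 162 to 187 TPM. The 10 endothelial markers, such as Pecam1 and Cdh5, were also at 1 TPM or more in every library and summed to 106 to 125 TPM. The 10 pericyte markers summed to 57.6 to 86.7 TPM, of which Vtn was listed at 0 in all libraries and Higd1b in both libraries of litter 2. The 8 glial markers summed to 4.27 to 6.54 TPM, with Foxd3, Olig1 and Olig2 among those listed at 0 in some libraries. In such bulk samples, fewer cells of a type and less RNA per cell cannot be told apart.

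**Figure D1:**
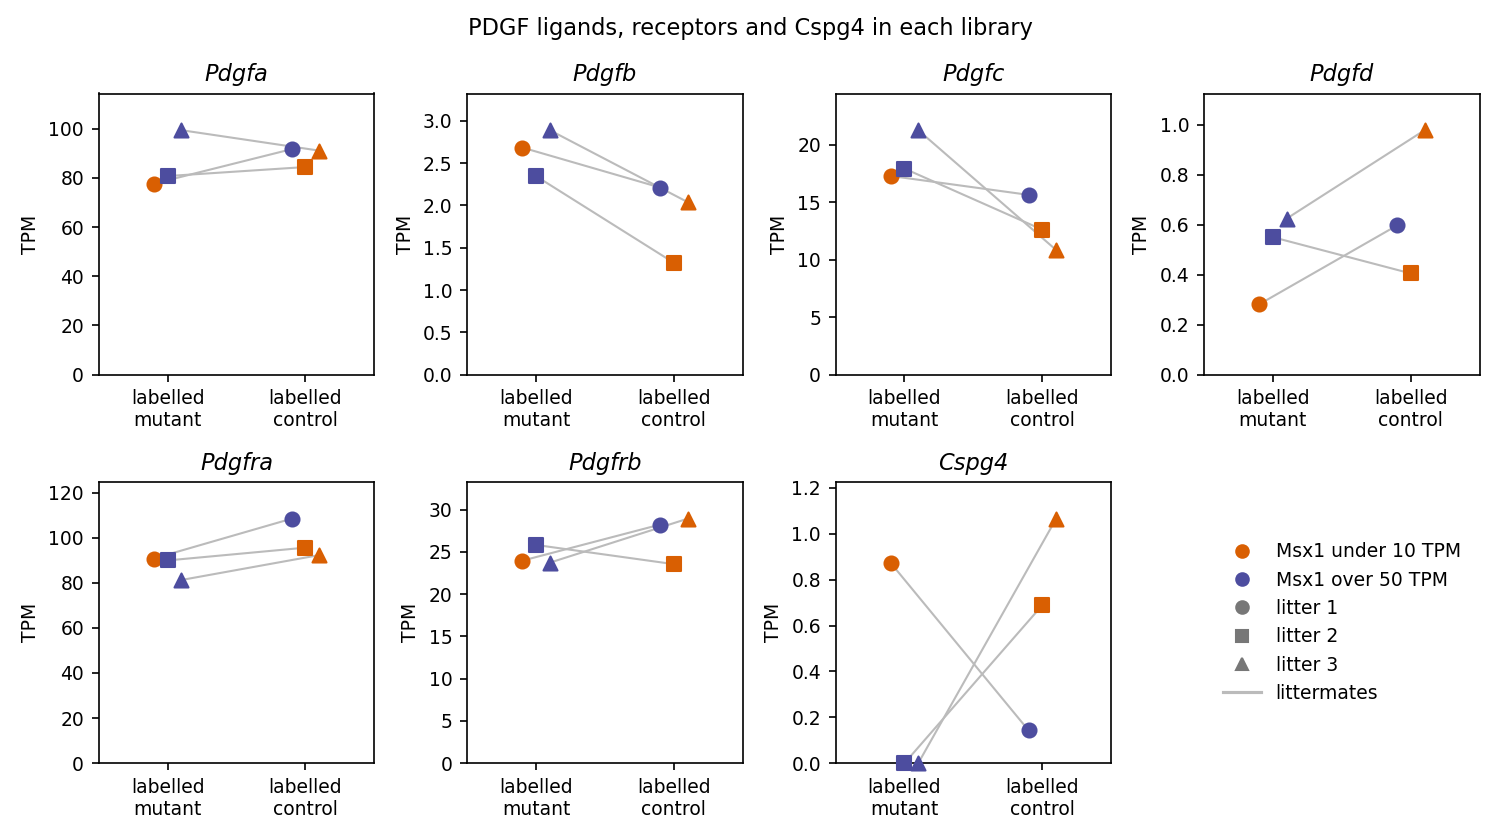
TPM of the 7 genes in each of the 6 libraries (vertical axes in TPM, each from 0), with mutant-labelled libraries on the left and labelled control on the right; each point is 1 library, its shape gives the litter, its colour the Msx1 level, and grey lines join littermates. Pdgfb and Pdgfc lie higher and Pdgfra lower in the mutant label without overlap as deposited, the separation of Pdgfra being lost after median-of-ratios scaling, whereas Cspg4 is higher in the low-Msx1 littermate of each litter.

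Among the 7 genes, Cspg4 alone was higher in the low-Msx1 library of every litter. Cspg4 was at 0.873 TPM in the low-Msx1 library, labelled mutant, and at 0.143 TPM in the high-Msx1 library, labelled control, of litter 1. In litter 2 it was at 0.689 TPM in the low-Msx1 library, labelled control, and listed at 0 in the high-Msx1 library, labelled mutant. In litter 3 it was at 1.07 TPM in the low-Msx1 library, labelled control, and again listed at 0 in the high-Msx1 library, labelled mutant. It was thus higher with low Msx1 in 3 of 3 litters, while the labelled groups overlapped. Of 17605 genes above 0 in any library, 9.71% were likewise higher in the low-Msx1 library of every litter.

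Cspg4 was also the 1 member of the 7 that passed the authors' test. The authors' deposited table put it at 5.10 ± 1.09 on the log2 scale (value and standard error), with p = 2.62e-06 and an adjusted p of 0.00544. Of the genes there, 0.0961% of 14572 with an adjusted p passed, and 0.0618% passed with a positive sign. The base mean of Cspg4 in the authors' deposited table was 23.9 normalised counts per library. With 2 libraries listed at 0, the size of this fitted value cannot be read as a fold. Between the labels, Cspg4 averaged 0.291 ± 0.504 TPM in the mutant label and 0.632 ± 0.464 TPM in the control label (SD, n = 3 each). It was below the 1 TPM filter of the labelled comparison, and in the fit without that filter the log2 difference was -0.36 ± 0.31 (SE; limma adjusted p = 0.855).

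Cspg4 (ENSMUSG00000032911) lies on the plus strand of chromosome 9, at 56865033 to 56899870 in GRCm38, and no other gene of the GENCODE M21 annotation overlaps it. Pericytes and glial progenitors are known to express it. The summed pericyte markers were at 57.6, 63.6 and 86.7 TPM in the low-Msx1 libraries of litters 1, 2 and 3, against 79.2, 65.5 and 68.9 TPM in their high-Msx1 littermates, so the sums were lower in litters 1 and 2 and higher in litter 3. Of the 10 pericyte markers, 9 were above 0 in any library. Of these, 3 were higher and 0 lower in the low-Msx1 library of every litter, against 9.71% higher and 10.9% lower of all genes above 0. They were Mcam, Kcnj8 and Anpep, an aminopeptidase gene, which was at 10.9, 12.6 and 15.6 TPM in the low-Msx1 libraries and 9.89, 9.66 and 11.6 TPM in the high-Msx1 littermates. Kcnj8 was at 0.504 TPM or less in every library. For Rgs5, a further pericyte gene, the authors' deposited table gave -0.36 on the log2 scale (unadjusted p = 0.0451, adjusted p = 1.00), and for Mcam it gave 0.63 (unadjusted p = 0.0472, adjusted p = 1.00). Of the pericyte markers with an adjusted p there, 62.5% were negative, against 49.3% of all genes. Besides Rgs5 these were Abcc9 at -0.36, Notch3 at -0.08, Des at -0.15 and Acta2 at -0.85. The summed glial markers were at 4.27, 5.53 and 6.54 TPM in the low-Msx1 libraries and at 4.78, 5.61 and 4.44 TPM in the high-Msx1 littermates. The part of either cell type in the Cspg4 difference was not tested.

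The promoter sequence of Cspg4, the gene that differed with Msx1, is shown beside that of Pdgfc, the ligand gene with the widest difference between labels, both from RefSeq in GRCm38.p6. Each is on the plus strand, 5′ to 3′, and ends before the GENCODE start of the gene. They span chr9:56864854-56865032 for Cspg4 and chr3:81036166-81036415 for Pdgfc. Capitals mark GC boxes, spelled GGGCGG or, where the box lies on the other strand, CCGCCC.
Cspg4: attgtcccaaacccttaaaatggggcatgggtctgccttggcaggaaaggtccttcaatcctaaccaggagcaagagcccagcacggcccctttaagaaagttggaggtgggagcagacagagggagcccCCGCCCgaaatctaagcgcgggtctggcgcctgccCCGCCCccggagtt
Pdgfc: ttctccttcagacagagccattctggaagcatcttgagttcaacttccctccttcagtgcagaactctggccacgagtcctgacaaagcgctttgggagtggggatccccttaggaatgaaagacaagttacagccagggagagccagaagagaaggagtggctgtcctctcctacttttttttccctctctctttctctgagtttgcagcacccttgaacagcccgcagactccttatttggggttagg
The Cspg4 stretch holds 2 GC boxes, which begin 120 and 85 bases before the RefSeq start, and the Pdgfc stretch holds 0. The RefSeq start of Cspg4 lies 71 bases downstream of its GENCODE start, so the printed stretch ends short of it.

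Promoter windows of 5 of the 7 genes were searched, namely Cspg4, Pdgfa, Pdgfc, Pdgfd and Pdgfra. They made 6 windows in all because Pdgfa has a pair. No window was found for Pdgfb. Pdgfrb lies on chromosome 18, which was left out of the search of the members, so the counts of members do not cover it. Both strands of the 250 bases before each RefSeq start were searched. The homeobox core TAATTG, which reads CAATTA on the other strand and which Msx proteins are known to bind, was in 0 of the 6 windows. The palindrome TAATTA was in 0 as well, against 7.17% and 4.84% of 32851 promoter windows of the same length. GC boxes were in the Cspg4 window and in both Pdgfa windows, and 32.7% of all windows hold at least 1. TATAAA was in the Pdgfd window only, and in 12.4% of all windows. These are matches of letters in a short window and say nothing of binding.

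No ligand gene kept the same direction by Msx1 level in every litter, and Pdgfc and Pdgfb were ordered by label. Pdgfc, whose product is a latent homodimer that needs cleavage before it binds the alpha receptor, was at 17.3, 17.9 and 21.3 TPM in the mutant-labelled libraries of litters 1, 2 and 3, against 15.7, 12.6 and 10.9 TPM in the control-labelled ones. The labelled groups did not overlap, and the mutant label was higher in 3 of 3 litters. The means were 18.8 ± 2.14 TPM in the mutant label and 13.0 ± 2.43 TPM in the control label (SD, n = 3 each). The log2 difference was 0.51 ± 0.15 (SE), with a 95% interval of 0.16 to 0.85 and an unadjusted p = 0.00944 from limma, and it did not pass after adjustment over 12152 genes (limma adjusted p = 0.686). In that comparison 0% of genes were called, and the members called were 0 of the 5 tested, with 231 genes higher and 586 lower in the mutant label at an unadjusted p under 0.05. This excess of lower genes turned round with median-of-ratios scaling, which gave 408 higher and 310 lower at that p.

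By Msx1 level, Pdgfc changed direction between litters. It was 17.3 TPM in the low-Msx1 library and 15.7 TPM in the high-Msx1 library of litter 1, but 12.6 and 17.9 TPM in litter 2 and 10.9 and 21.3 TPM in litter 3, in the same order. The log2 differences were 0.14, -0.48 and -0.91. The authors' deposited table had Pdgfc at -0.44 ± 0.24 (p = 0.0609, adjusted p = 1.00). Pdgfc (chromosome 3, 81036416 to 81214040) overlaps Gm16000 on the opposite strand, and whether strand was used in quantification is not given in the sources used here.

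Pdgfb, the ligand gene of endothelium that recruits pericytes, was at 2.68, 2.35 and 2.89 TPM in the mutant-labelled libraries of litters 1, 2 and 3, and at 2.21, 1.32 and 2.04 TPM in the control-labelled ones. Again the labelled groups did not overlap and the mutant label was higher in 3 of 3 litters. The log2 difference was 0.36 ± 0.19 (SE; limma adjusted p = 0.727). By Msx1 level the low-Msx1 library was higher in litter 1 and lower in litters 2 and 3. In the authors' deposited table Pdgfb was at -0.34 ± 0.61 (adjusted p = 1.00). The summed endothelial markers were at 107, 106 and 125 TPM in the mutant-labelled libraries and 108, 111 and 108 TPM in the control-labelled ones, so they did not move with Pdgfb in litters 1 and 2, and were higher with it in litter 3. Pdgfb lies on chromosome 15, at 79995874 to 80014977, and overlaps Gm41361 on the opposite strand.

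Groups in which the mutant label lay wholly above the control label made up 2.73% of the 12152 genes tested, and those in which it lay wholly below made up 10.4%. The members with such separation were 2 above, Pdgfb and Pdgfc, and 1 below, Pdgfra. After median-of-ratios scaling, which was applied to this count after the data were seen, the shares of all genes were 5.51% above and 5.55% below. The same 2 ligand genes stayed above, and Pdgfra no longer separated the labels.

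Pdgfa, the ligand gene that dominates the family here, showed no steady order. It was at 77.7, 80.8 and 99.4 TPM in the mutant-labelled libraries of litters 1, 2 and 3, and at 91.7, 84.4 and 91.1 TPM in the control-labelled ones. The groups overlapped, with means of 86.0 ± 11.8 TPM in the mutant label and 89.1 ± 4.03 TPM in the control label (SD, n = 3 each). The log2 difference was -0.06 ± 0.11 (SE; limma adjusted p = 0.911), with a 95% interval of -0.30 to 0.19, and its sign turned after median-of-ratios scaling, to 0.01. In the authors' deposited table Pdgfa was at -0.10 ± 0.16 (adjusted p = 1.00). Its gene (chromosome 5, 138976014 to 138997370) overlaps 6330403L08Rik on the opposite strand.

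Pdgfd, whose product binds the beta receptor after cleavage, was scarce. It was at 0.282, 0.550 and 0.625 TPM in the mutant-labelled libraries of litters 1, 2 and 3, and at 0.597, 0.405 and 0.979 TPM in the control-labelled ones. The groups overlapped, both by label and by Msx1 level. The authors' deposited table had Pdgfd at -0.29 ± 0.85 (adjusted p = 1.00), a standard error that leaves differences of either sign possible. Pdgfd (chromosome 9, 6168584 to 6378850) contains the position of Ddi1 on the opposite strand.

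Seen as a mixture, the ligand transcripts were almost wholly Pdgfa and Pdgfc. Together they made up 97.0% to 98.3% of the summed TPM of the 4 ligand genes in every library. The share of Pdgfc was 17.7%, 17.7% and 17.1% in the mutant-labelled libraries and 14.2%, 12.8% and 10.3% in the control-labelled ones. The ratio of Pdgfa to Pdgfc, which does not depend on how libraries are scaled, was 4.49, 4.50 and 4.67 in the mutant-labelled libraries of litters 1, 2 and 3, and 5.86, 6.69 and 8.40 in the control-labelled ones. The ratio was lower in the mutant label in 3 of 3 litters, and was nearly constant across the mutant label. By Msx1 level it changed direction, at 4.49, 6.69 and 8.40 in the low-Msx1 libraries of litters 1, 2 and 3. Their high-Msx1 littermates were at 5.86, 4.50 and 4.67. How many other gene ratios separate the labels was not counted. An exact two-sided permutation test of this ratio, which was chosen after its values were seen, gave p = 0.1, the smallest that 3 against 3 libraries can give. That p follows from the ratios not overlapping between the labels, so it adds nothing to this separation.

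**Figure D2:**
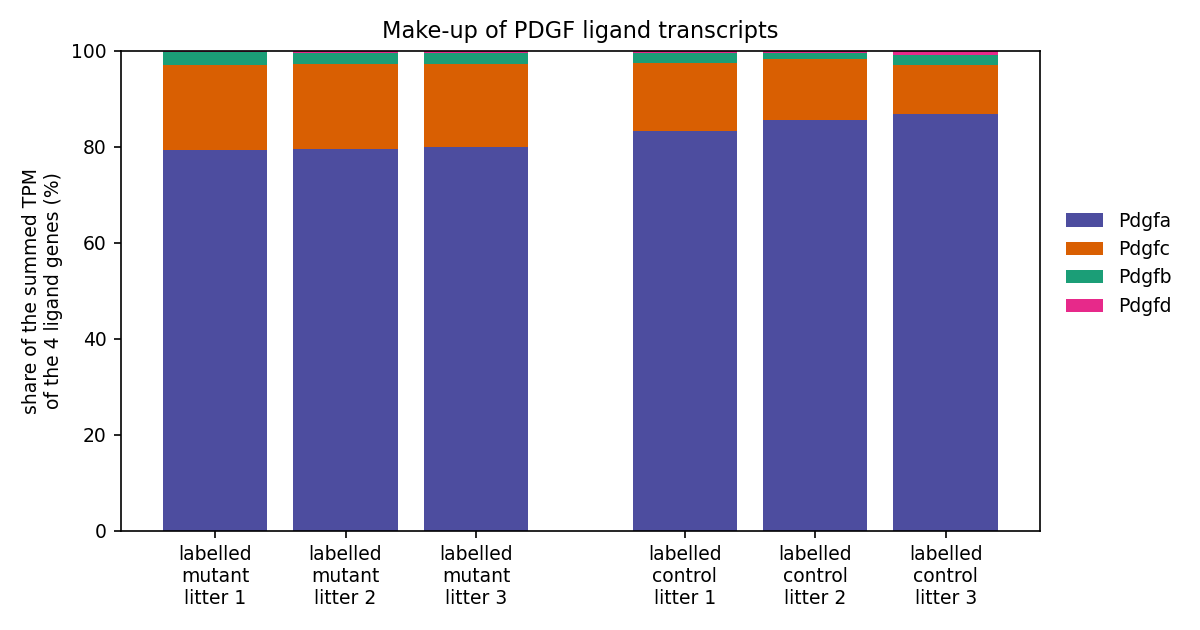
Share of each ligand gene in the summed TPM of Pdgfa, Pdgfb, Pdgfc and Pdgfd (vertical axis, percent), with 1 bar per library, the mutant-labelled ones on the left and labelled control on the right. The Pdgfc share lies between 17.1% and 17.7% in the mutant-labelled libraries and between 10.3% and 14.2% in the control-labelled ones.

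The receptor genes varied little between libraries and did not keep the same direction by Msx1 level in every litter. Pdgfra, the receptor of mesenchyme that binds PDGF-AA and PDGF-CC, was at 90.8, 89.9 and 81.2 TPM in the mutant-labelled libraries of litters 1, 2 and 3, and at 108, 95.6 and 92.3 TPM in the control-labelled ones. The groups did not overlap by label with the TPM as deposited, and the mutant label was lower in 3 of 3 litters. The log2 difference was -0.17 ± 0.09 (SE; limma adjusted p = 0.727), with a 95% interval of -0.38 to 0.03. By Msx1 level the low-Msx1 library was lower in litter 1 and higher in litters 2 and 3, at log2 differences of -0.25, 0.09 and 0.18. The authors' deposited table had Pdgfra at 0.006 ± 0.11 (adjusted p = 1.00), with a 95% interval of -0.21 to 0.22 from that standard error.

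Pdgfrb, the receptor of mural cells and of much mesenchyme, was at 23.9, 25.8 and 23.7 TPM in the mutant-labelled libraries of litters 1, 2 and 3, and at 28.2, 23.5 and 28.9 TPM in the control-labelled ones. The labelled groups overlapped, and the log2 values differed by -0.13 ± 0.10 (SE; limma adjusted p = 0.799). By Msx1 level it was lower in litters 1 and 2 and higher in litter 3. The authors' deposited table had it at -0.03 ± 0.15 (adjusted p = 1.00), with a 95% interval of -0.31 to 0.26 from that standard error. The pericyte marker sum was ordered as Pdgfrb was in each pair of littermates, and its part in Pdgfrb was not tested.

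Pdgfra made up 76.1% to 80.2% of the summed TPM of both receptor genes. Its ratio to Pdgfrb was 3.79, 3.48 and 3.43 in the mutant-labelled libraries of litters 1, 2 and 3 and 3.84, 4.06 and 3.19 in the control-labelled ones, so the groups overlapped. Over all 6 libraries the coefficient of variation was 9.59% for Pdgfra, 9.20% for Pdgfa and 9.28% for Pdgfrb, against medians of 8.91%, 9.01% and 11.0% for genes within 2-fold of each one's level. Pdgfc varied more, at 23.7% against 12.1%, and Pdgfb hardly less than its peers, at 24.5% against 25.7%. Pdgfra lies on chromosome 5, at 75152292 to 75198215, and 2 predicted genes, Gm42802 and Gm42803, overlap it on the opposite strand.

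**Figure D3:**
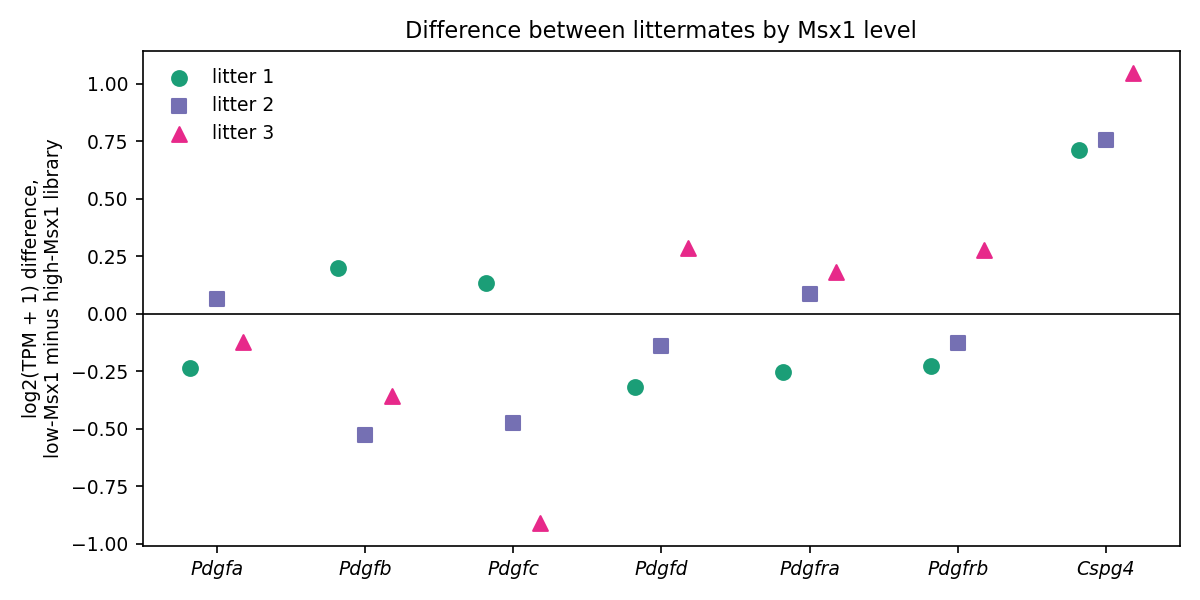
Difference in log2(TPM + 1) between the low-Msx1 and the high-Msx1 library of each litter (vertical axis) for the 7 genes, with 1 point per litter. The 3 points of Cspg4 lie above 0, between 0.71 and 1.05, and those of every other gene lie on both sides of 0.

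Across litters, 6 of the 7 genes had differences of both signs by Msx1 level. Besides Cspg4, 0 members were higher in the low-Msx1 library of every litter, and 0 were lower, against 9.71% and 10.9% of genes above 0 in any library. Litter 1 was opposite in sign to both other litters for Pdgfb, Pdgfc and Pdgfra, the genes with the same order by label in every litter. The low-Msx1 library carries the mutant label in litter 1 only. A steady order by label therefore changes sign there, and this pattern restates the order by label. Red blood cell markers summed to 20835 TPM in the mutant-labelled library of litter 1 and to 6405 to 9055 TPM in the other 5 libraries, and the mitochondrial share of listed TPM was 8.03% in the control-labelled library of litter 1, against 6.02% to 6.51% elsewhere. The part of red blood cells and of the mitochondrial share in the differences between littermates was not tested.

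Genes that process PDGF ligands or assist their receptors showed no called change. Of the 7 processing enzymes, 4 were positive and 3 negative in the authors' deposited table, 0 passed its threshold, and the median log2 fold change was 0.02, against 0.003 over all 14572 genes. The smallest p-values belonged to Plau, a urokinase gene, at -0.58 ± 0.73, and to the proprotein convertase genes Pcsk6, at 0.46 ± 0.63, and Pcsk5, at 0.16 ± 0.28, in the authors' deposited table. Of the 7, 1 was higher (Pcsk6) and 0 lower in the low-Msx1 library of every litter, beside 9.71% and 10.9% of all genes above 0. Among the accessory genes below, 0 were higher and 0 lower in this way. Plat, the tissue plasminogen activator gene whose product cleaves PDGF-CC, was at 3.86, 5.16 and 3.61 TPM in the mutant-labelled libraries and 3.40, 4.89 and 4.71 TPM in the control-labelled ones. All 5 accessory genes (Nrp1, Lrp1, Sparc, Sulf1 and Sulf2) were positive in the authors' deposited table, as were 50.7% of all genes there; 0 passed and their median was 0.13. Sulf2, a heparan sulfate endosulfatase gene, was at 0.15 ± 0.12, Sparc, a matricellular protein gene whose product binds PDGF-B, at 0.13 ± 0.15, and Nrp1, a co-receptor gene, at 0.14 ± 0.22. All 5 were lower in the mutant label in the labelled comparison, as were 65.4% of all genes tested, with a median log2 difference of -0.21 against -0.06 over all genes, and 0 were called. All 5 were also lower after median-of-ratios scaling, with a median of -0.15, where 50.1% of all genes were lower.

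Downstream of the receptors, 35 signal transduction genes had 12 positive and 23 negative values in the authors' deposited table. Their median was -0.02 and 0 passed its threshold. Pik3cb, a catalytic subunit gene of PI3 kinase, had the smallest p in this list, at -1.37 ± 0.50 (unadjusted p = 0.00587, adjusted p = 1.00). Pik3cb was at 3.28, 0.938 and 1.04 TPM in the low-Msx1 libraries of litters 1, 2 and 3, labelled mutant, control and control, against 5.17, 2.53 and 4.14 TPM in their high-Msx1 littermates. It was lower in the low-Msx1 library of every litter, although the level in litter 1 exceeded the high-Msx1 level of litter 2. Pik3r3, a regulatory subunit gene of PI3 kinase, was at -0.28 ± 0.17 and Mapk3, which encodes ERK1, at 0.24 ± 0.18 in the authors' deposited table. Of the 35 genes, 2 were higher (Mapk3 and Akt1) and 5 lower, Pik3cb among them, in the low-Msx1 library of every litter, where the shares of all genes above 0 were 9.71% and 10.9%.

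Among 19 genes that respond to PDGF or to serum response factor, 17 were given an adjusted p by the authors' deposited table, with 9 positive, 8 negative, a median of 0.04 and 0 past the threshold. Those with the smallest p were Spry4, a feedback inhibitor of receptor tyrosine kinase signalling, at -0.43 ± 0.24, the focal adhesion gene Vcl, at -0.24 ± 0.15, and the smooth muscle gene Tagln, at -1.20 ± 1.08. Vcl was at 19.5, 19.4 and 19.3 TPM in the low-Msx1 libraries of litters 1, 2 and 3 and at 22.6, 21.8 and 24.5 TPM in their high-Msx1 littermates. Of all 19 response genes, 3 were higher (Myc, Mrtfa and Spry1) and 2 lower (Vcl and Tagln) in the low-Msx1 library of every litter, beside the same 9.71% and 10.9% of all genes. Many of these genes answer other growth factors too.

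**Figure D4:**
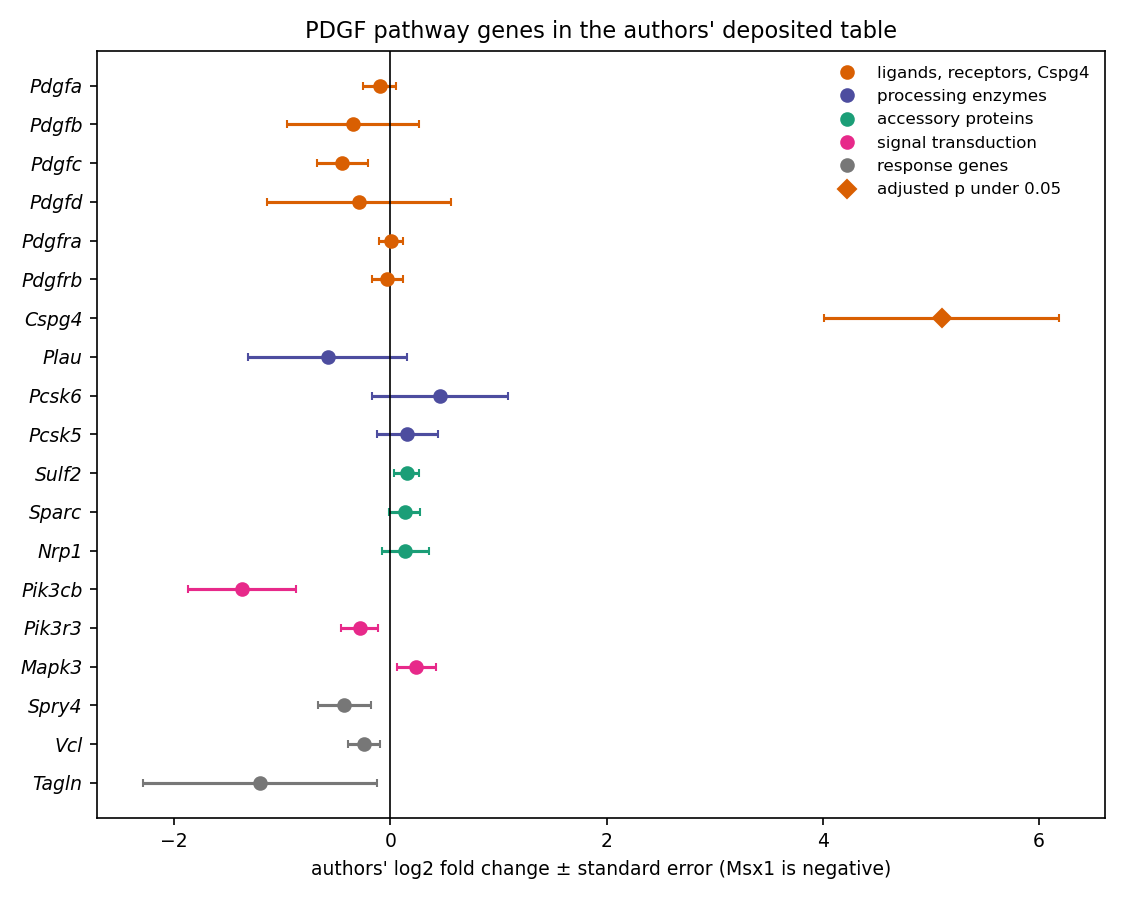
Log2 fold change with its standard error in the authors' deposited table (horizontal axis, positive where Msx1 was lower) for the 7 genes and for the 3 genes with the smallest p in each pathway list. The Cspg4 value of 5.10 is the only 1 drawn as a diamond, which marks an adjusted p under 0.05, and those of the 6 PDGF ligand and receptor genes lie between -0.44 and 0.006.

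The genes whose levels over the 6 libraries were most like those of Pdgfra, by Pearson r of log2(TPM + 1), were Kcnj13 (r = 0.999), Sdc2 (r = 0.997), Uprt, Zfp160 and Rbm27. For Pdgfrb they were Wwox (r = 0.995), Kmt2c, Fblim1, Ftsj3 and Ttll4, and for Cspg4 they included Ndor1 (r = 0.992), Stk32b (r = 0.990), Palmd and Tafa5. In all, 163 of 11642 genes exceeded 0.9 for Pdgfra, 342 for Pdgfrb and 76 of 11643 for Cspg4. The points share their libraries and litters, and the values only describe these libraries. Stk32b, a kinase gene near Msx1, was at 23.3, 23.8 and 27.6 TPM in the low-Msx1 libraries of litters 1, 2 and 3 and at 13.1, 12.4 and 12.1 TPM in their high-Msx1 littermates. Palmd was at 1.81, 1.62 and 1.84 TPM in the low-Msx1 libraries and at 0.975, 0.835 and 0.671 TPM in the high-Msx1 littermates.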

How the data were processed

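Polyadenylated RNA of 6 libraries was used as the authors' deposited TPM values, 1 per gene and library. The submitters' processing notes name Salmon 1.5.2, DESeq2 and mm10, without roles or settings. The authors' deposited comparison table holds, per the file headers, a base mean (signal), the log2 fold change with a standard error, the Wald score, and p-values before and after adjustment. Its direction and model are not stated. TPM keep no depth, so the depth per library is unknown and precision rests on the spread between embryos, which are separate embryos per the labels.

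The 7 genes and all lists were chosen with earlier results of these data known. The labelled groups were compared with limma 3.58.1 in R 4.3.3 (variance trend, robust) on log2(TPM + 1), which understates changes of low genes, over 12152 genes that reached 1 TPM in 3 or more libraries, with Benjamini-Hochberg adjustment at 0.05. Pdgfd and Cspg4 did not pass this filter. The script was tested on simulated data. Littermates are paired by the labels, although their deviations from the group means correlated at -0.05, -0.03 and -0.03 in litters 1, 2 and 3. Alternatives were the pseudocount, the filter, the scaling, the moderation, litter as a block, and leaving out libraries or litters. Named pathway genes are those past a threshold and the 3 with the smallest p in the authors' table. Plat was added after its values were seen, as were the values of Stk32b and Palmd. So were Anpep, Mcam, Kcnj8, Rgs5, the other pericyte genes named by sign, and the other genes listed by their direction over litters. All 137 list genes were matched, and a few are not reported here by name. Gene positions are from GENCODE M21 (GRCm38), promoters from RefSeq.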

Additional observations from a re-analysis of the deposited data

How the results depend on the processing

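The count of 0 PDGF members called in the labelled comparison held in every fit run, and the replicate block, with litter as the paired term, gave 0 members, 0 genes higher and 0 lower, and changed no other call. When libraries were left out one at a time, 0 to 1 gene was higher in the mutant label (1 without labelled control of litter 1) and 0 to 1 lower (1 without labelled mutant of litter 1). The labelled difference of Pdgfa turned to 0.0102 with median-of-ratios scaling, and ranged from -0.17 to 0.0095 over the left-out libraries; the cause was not tested. Pdgfc and Pdgfb stayed positive, from 0.39 to 0.64 and from 0.22 to 0.51 over all settings, with adjusted p of 0.412 to 0.918 and 0.671 to 0.928. By Msx1 level, Cspg4 was higher in each litter under every setting. Leaving out each litter gave 1 to 2 members higher in all remaining litters (2 without litter 1, Pdgfra joining Cspg4) and 1 to 2 lower (2 without litter 1 or litter 3, 1 without litter 2), because fewer litters have to share a direction. The log2 difference of Cspg4 depends on the pseudocount: in litters 1, 2 and 3 it was 0.71, 0.76 and 1.05 with 1 TPM, and 2.00, 2.98 and 3.54 with 0.1 TPM. Cspg4 stayed the 1 member called in the authors' deposited table with adjustment over all p-values or a threshold of 0.1. Unknown depth limits Cspg4 and Pdgfd most.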
